A study of Caenorhabditis elegans with 4 samples.

Results

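The genes described here encode 2 families of zinc metallopeptidases in Caenorhabditis elegans, the neprilysins (symbols nep) and the astacins (symbols nas). Members were chosen by gene name, as every row of the count table whose symbol is nep- or nas- followed by a number, and the families were picked for description when fold changes of the mutant against the wild type were already known, so those changes are given as a description of these genes and not as independent evidence about them. The rule found 60 of 20179 rows, 23 nep rows and 37 nas rows. The nas rows carry 36 symbols, because nas-2 is listed under 2 identifiers. Of the 60 rows, 44 passed the filter on low counts and were tested, 20 nep and 24 nas.

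The data are ribosome footprint counts per gene from whole young adult worms, grown on OP50 bacteria from hatched larvae and frozen at harvest. Both the wild-type strain N2 and a mutant strain were represented by 2 libraries. The mutant strain is altered in the Y-box genes cey-1 (allele rrr12) and cey-4 (allele ok858), whose proteins bind messenger RNA. The labels do not say whether the 2 libraries of a group came from separate cultures, so the p-values measure the spread between these libraries, which may be technical. RNA-seq libraries were not analysed here: a footprint level combines how much message there was with how many ribosomes it carried, and in whole animals fewer cells of a type and less RNA per cell cannot be told apart.

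Neprilysins are membrane-bound or shed enzymes that cut short peptides outside the cell, among them neuropeptides, and in mammals neprilysin also degrades enkephalins and amyloid beta. Astacins are secreted enzymes made as inactive precursors. In the worm some of them digest food, some loosen the old cuticle at the moult or open the eggshell at hatching, and the BMP-1 and tolloid branch of the family trims procollagens. Both families need a zinc ion in the active site.

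Library totals ranged from 22334239 to 32960588 counts, so that 3 counts, the most that a count of 0 allows, stood for 0.091 to 0.134 CPM (footprint counts scaled to the library total). This limit covers counting error alone, because PCR copies without molecular identifiers cannot be told from separate molecules. Footprints on the mutated genes were nearly lost: cey-1 had 69.8 and 73.4 CPM in N2 and 3.86 and 4.12 CPM in the mutant, and cey-4 had 263 and 266 CPM against 1.87 and 1.52 CPM. Over the 13086 genes tested, 2278 were called higher and 2177 lower in the mutant (edgeR quasi-likelihood test, Benjamini-Hochberg adjusted p under 0.05 over all genes), and the median log2 fold change was 0.01. When libraries were scaled to 74 marker genes of muscle, pharynx, intestine, hypodermis and neurons, the median of all genes moved by -0.20 and the calls became 1001 higher and 5216 lower. That scaling, called somatic centring below, sets the zero of every fold change, and calls that it adds or ends among the nep and nas genes are given beside the values.

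Most footprints of each family fell on a few genes. All nep genes together held 1203 and 1098 CPM in N2 and 1301 and 1262 CPM in the mutant, and all nas genes 223 and 232 CPM in N2 and 237 and 229 CPM in the mutant. The summed nep level was higher in both mutant libraries than in either N2 library, whereas the summed nas levels of the 2 groups overlapped. The mean nep sum of the mutant was 1.11 times that of N2, and nep-17 alone took 79.0% and 77.5% of the nep counts in N2. These sums are scaled to library totals, and under somatic centring the log2 fold change of nep-17 was -0.05. nep-17 and nep-22 took 91.7% and 90.6% of the nep counts in N2, against 89.1% and 89.4% in the mutant. In the astacin family nas-20, nas-11, nas-37 and nas-9 took 91.3% and 90.8% of the nas counts in N2, against 89.6% and 90.8% in the mutant. These shares are of counts and are not corrected for coding length, so they do not rank the amount of protein made. Apart from nep-17, the other nep genes summed to 253 and 247 CPM in N2 and to 287 and 276 CPM in the mutant.

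**Figure D1:**
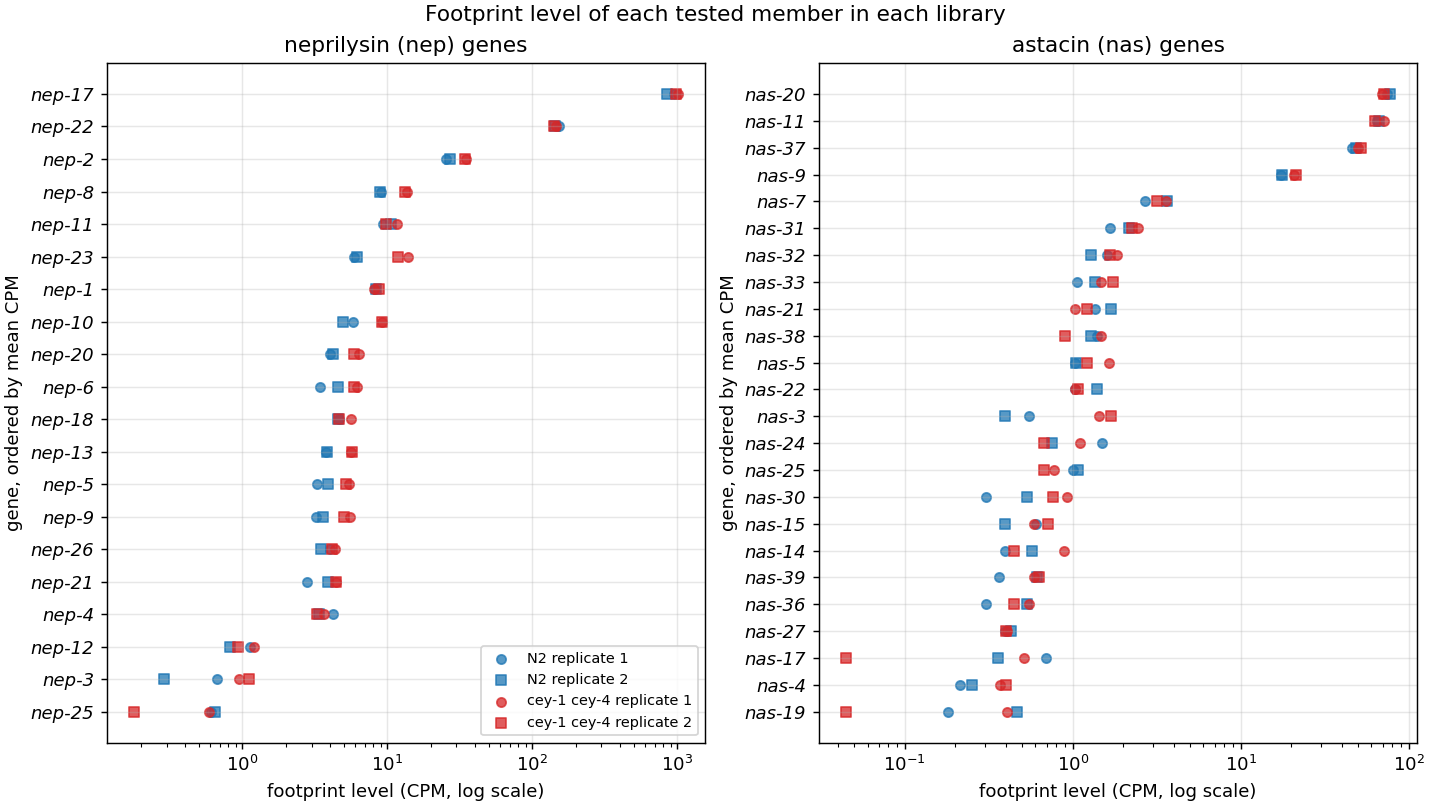
Footprint level in CPM (log scale) of the 20 tested nep genes (left) and the 24 tested nas genes (right), 1 point for each of the 4 libraries, N2 in blue and the mutant in red. Many nep genes of middle level have both red points to the right of both blue points, whereas most nas genes lie below 3.7 CPM with scattered points.

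Many neprilysin genes carried more footprints in the mutant. Of the 20 tested, 12 were called higher and none lower, and 8 did not pass the test, where 17.4% of all genes tested were called higher and 16.6% lower. No nep gene had an unadjusted p under 0.05 in the lower direction, and DESeq2 also called none lower. The median log2 fold change of the tested nep genes was 0.41, beside 0.01 over all genes tested. Both mutant libraries lay above both N2 libraries for 13 of them and below for 1 (33.8% and 31.1% of all genes tested). Under somatic centring the nep median was 0.21, with 10 called higher and 1, nep-22, called lower. Over all 13086 genes tested, that scaling called 1001 higher and 5216 lower. DESeq2 called 6 of the nep genes higher, beside 1007 higher and 1171 lower over all genes.

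The astacin genes gave few calls. Of the 24 tested, 3 were called higher, 1 lower and 20 did not pass, with a median log2 fold change of 0.19 that became -0.01 under somatic centring. Both mutant libraries lay above both N2 libraries for 9 of them and below for 3 (33.8% and 31.1% of all genes tested). The nas calls are 12.5% higher and 4.17% lower, beside 17.4% and 16.6% of all genes tested. Whether the 2 families differ in their response was not tested. Their footprint depth differed: 17 of the 20 tested nep genes had a mean of at least 100 counts per library, against 4 of the 24 tested nas genes. The median standard error (SE) of the log2 fold change was 0.137 for the nep genes and 0.301 for the nas genes. Among genes with a mean of at least 100 counts, 11 of 17 nep genes were called higher, and of the 4 nas genes 1 was called higher and 1 lower, beside 20.2% higher and 23.3% lower of all such genes. Under 100 counts, 1 of 3 nep genes and 2 of 20 nas genes were called higher and none lower, beside 11.9% higher and 3.62% lower of all genes of that depth.

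**Figure D2:**
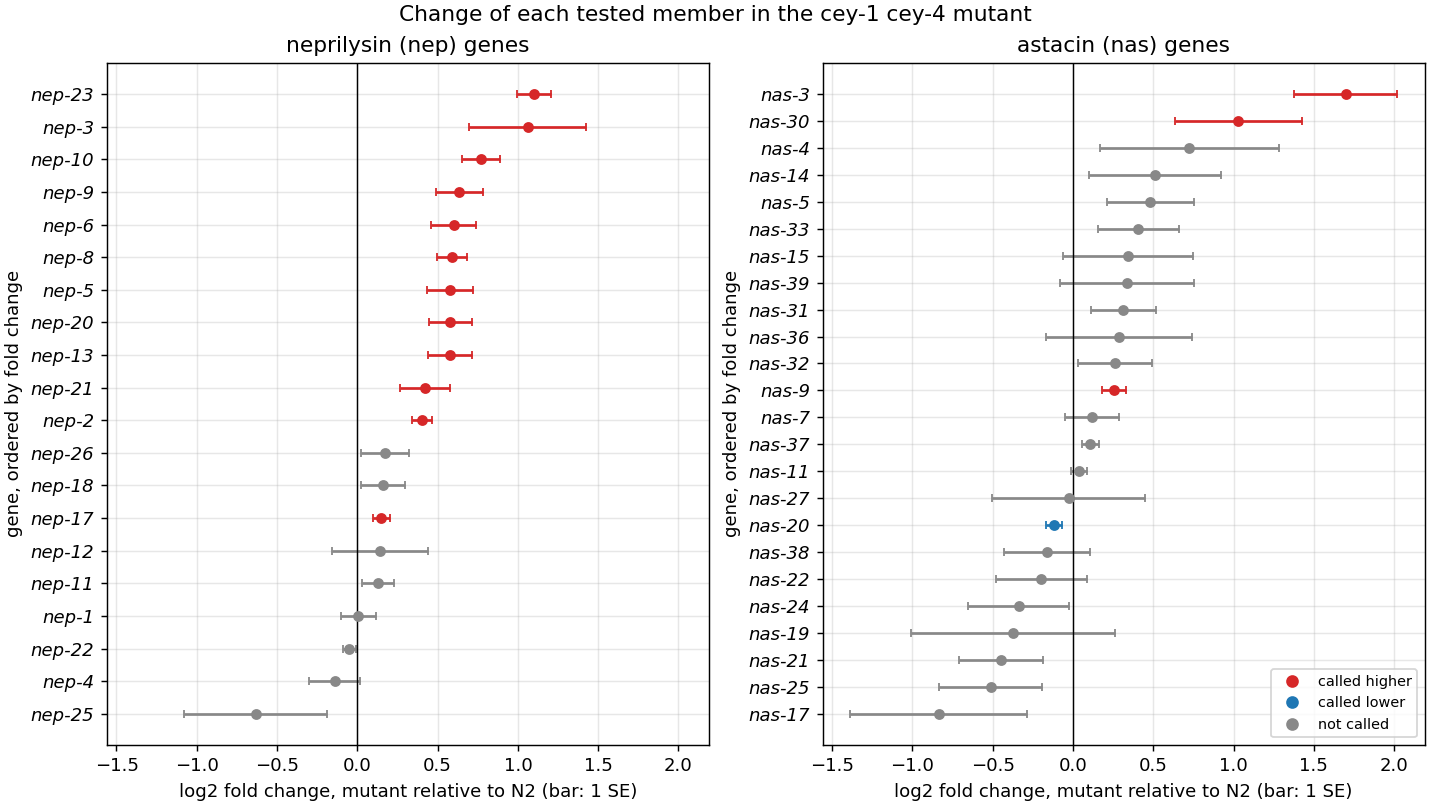
Log2 fold change of the mutant relative to N2 for each tested nep gene (left) and nas gene (right), with bars of 1 SE. Red marks the 12 nep and 3 nas genes called higher, blue the 1 nas gene called lower and grey the rest. The nep genes called higher run from 0.15 to 1.10, and the bars of most nas genes are wide.

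A row of 6 neprilysin genes stands side by side on one chromosome, and 5 of these 6 were called higher. In the RefSeq annotation of the WBcel235 assembly, used here only for which genes are neighbours, the order is nep-20, nep-9, nep-10, nep-8, nep-6 and nep-11, with the pseudogene nep-7 and 2 genes of other names between nep-8 and nep-6. Together they held 34.8 and 36.8 CPM in N2, against 52.6 and 49.2 CPM in the mutant, so the summed mutant level was 1.42 times that of N2. This group was set apart after its values were seen. Of the 14 tested nep genes outside it, 7 were also called higher and 0 lower, beside 17.4% and 16.6% of all genes tested.

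The largest rise in the row was that of nep-10 (WBGene00017555), with 5.83 and 4.91 CPM in N2 and 9.26 and 9.18 CPM in the mutant, a log2 difference of 0.77 (edgeR adjusted p = 8.36e-08, SE 0.116). nep-9 (WBGene00017554) had 3.22 and 3.62 CPM in N2 and 5.51 and 5.06 CPM in the mutant (edgeR adjusted p = 2.74e-04, log2 fold change 0.64 with SE 0.145). For both genes the lower mutant library was above the higher N2 library. nep-8 (WBGene00017553) had 9.04 and 8.89 CPM in N2 and 13.7 and 13.3 CPM in the mutant (edgeR adjusted p = 2.4e-07, log2 fold change 0.59 with SE 0.092). nep-20 (WBGene00020293) had 4.00 and 4.23 CPM in N2 and 6.36 and 5.91 CPM in the mutant (edgeR adjusted p = 3.34e-04, log2 fold change 0.58 with SE 0.134). The libraries of each genotype lay closer together than the genotypes did. nep-6 (WBGene00017550) had 3.46 and 4.55 CPM in N2 and 6.14 and 5.91 CPM in the mutant (edgeR adjusted p = 3.45e-04, log2 fold change 0.60 with SE 0.139; DESeq2 adjusted p = 0.0511). The N2 libraries of nep-6 differed from each other more than its mutant libraries did.

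The last gene of the row behaved less clearly. nep-11 (WBGene00017557) had 9.28 and 10.6 CPM in N2 and 11.7 and 9.85 CPM in the mutant, so its groups overlapped. Its log2 fold change of 0.13 did not pass the test (SE 0.098, 95% interval -0.06 to 0.32, edgeR adjusted p = 0.337). Whether nep-11 differs from its neighbours was not tested. The likeness of the 6 sequences was not examined, and how reads matching several genes were counted is not given in the sources used here, so the division of footprints among them is uncertain.

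**Figure D3:**
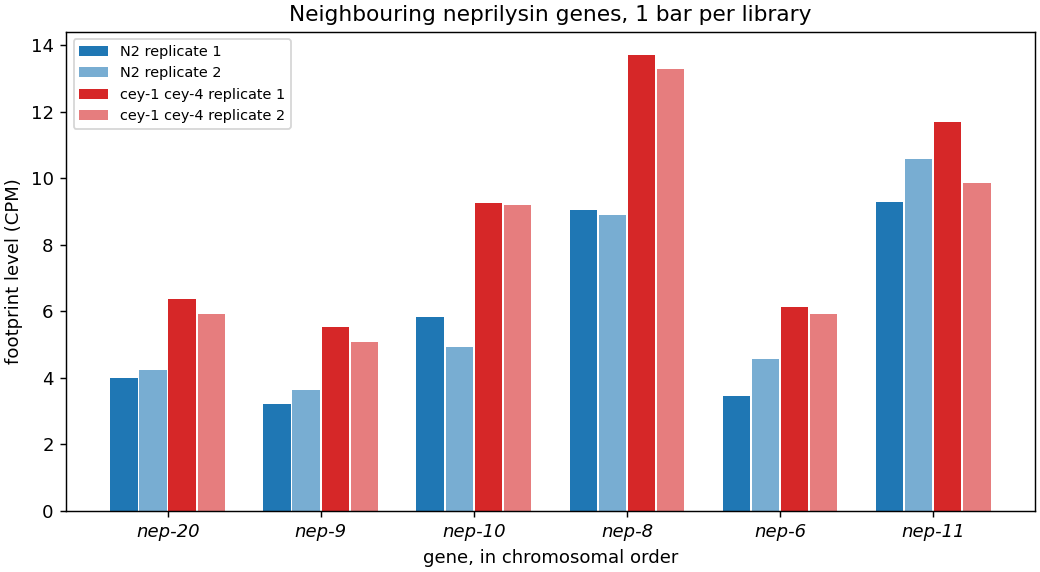
Footprint level in CPM of the 6 neighbouring nep genes in their chromosomal order, with 1 bar per library, N2 in blue and the mutant in red. Both red bars exceed both blue bars in nep-20, nep-9, nep-10, nep-8 and nep-6, whereas in nep-11 the red bar of 9.85 CPM is below the blue bar of 10.6 CPM.

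Outside that row, nep-23 had the largest fitted fold change of the tested nep genes, close to that of the scarce nep-3 described below. nep-23 (WBGene00013785) had 5.92 and 6.16 CPM in N2 and 13.96 and 11.8 CPM in the mutant, a log2 difference of 1.10 (edgeR adjusted p = 1.72e-14, SE 0.104). Each mutant library held at least 1.92 times the level of either N2 library. Its direct neighbour nep-24 had 1, 7, 6 and 3 counts in the 4 libraries (N2 first) and was not tested.

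nep-2 (WBGene00020230) encodes a neprilysin that dampens signalling by the neuropeptide SNET-1 in olfactory plasticity of the worm. It had 25.2 and 27.2 CPM in N2 and 34.9 and 34.4 CPM in the mutant, a log2 difference of 0.40 (edgeR adjusted p = 1.52e-07, SE 0.062), with the mutant libraries close together and above both N2 libraries. nep-1 (WBGene00013926), whose loss disturbs locomotion and pharyngeal pumping, had 8.28 and 8.39 CPM in N2 and 8.05 and 8.78 CPM in the mutant. The N2 values of nep-1 fell between the mutant values, and the log2 fold change of 0.0070 did not pass (SE 0.106, 95% interval -0.20 to 0.22, edgeR adjusted p = 0.968).

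nep-5 and nep-13 lie outside the row of neighbours, but had levels and fold changes near those of nep-20, nep-9 and nep-6 within it. nep-5 (WBGene00017393) had 3.28 and 3.87 CPM in N2 and 5.47 and 5.15 CPM in the mutant (edgeR adjusted p = 8.33e-04, log2 fold change 0.58 with SE 0.144; DESeq2 adjusted p = 0.0723). nep-13 (WBGene00018196) had 3.79 and 3.83 CPM in N2 and 5.66 and 5.73 CPM in the mutant (edgeR adjusted p = 5.37e-04, log2 fold change 0.58 with SE 0.138; DESeq2 adjusted p = 0.0546). In neither gene did the groups overlap.

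The 3 further nep calls were each lost when 1 of several libraries was left out. nep-17 (WBGene00010070), which took most of the family's counts, had 950.4 and 851 CPM in N2 and 1014 and 986 CPM in the mutant (edgeR adjusted p = 0.022, log2 fold change 0.15 with SE 0.053). The gap between its 2 N2 libraries was wider than the gap between the higher N2 library and the lower mutant library. It did not pass with N2 replicate 2 left out (0.07, adjusted p = 0.419), nor with mutant replicate 1 (0.13, 0.161) or mutant replicate 2 (0.16, 0.0709) left out, and under somatic centring it was -0.05 (0.503). nep-21 (WBGene00011794) had 2.79 and 3.87 CPM in N2 and 4.41 and 4.43 CPM in the mutant (edgeR adjusted p = 0.0303, log2 fold change 0.42 with SE 0.157). With N2 replicate 1 left out its log2 fold change was 0.19 (adjusted p = 0.481), and it was also not called without mutant replicate 1 (0.43, 0.107) or mutant replicate 2 (0.41, 0.101), nor under somatic centring (0.22, 0.265). Without N2 replicate 2 it was 0.66 (adjusted p = 0.0022). nep-3 (WBGene00016778) was counted 22 and 8 times in N2 and 26 and 25 times in the mutant (edgeR adjusted p = 0.0177, log2 fold change 1.06 with SE 0.364). The low N2 replicate 2 set the size of that change: without it the value was 0.62 (adjusted p = 0.256), and without N2 replicate 1 it was 1.82 (0.0035). nep-3 was also not called without mutant replicate 1 (1.19, 0.0519) or mutant replicate 2 (0.95, 0.132).

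The remaining nep genes did not pass the test. nep-22 (WBGene00020788) had 153 and 143 CPM in N2 and 145 and 142.02 CPM in the mutant, with a log2 fold change of -0.05 (SE 0.040, 95% interval -0.13 to 0.03, edgeR adjusted p = 0.369), and its groups overlapped. Under somatic centring it was -0.25 (adjusted p = 2.07e-06), close to the shift of -0.20 that this scaling gave all genes. nep-4, nep-12, nep-18, nep-25 and nep-26 had log2 fold changes from -0.63 to 0.17. nep-15 and nep-16 had at most 4 counts in any library and were not tested.

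Among the astacins, nas-20, nas-11, nas-37 and nas-9 were counted well enough to resolve small changes. nas-9 (WBGene00003528) had 17.5 and 17.7 CPM in N2 and 20.6 and 21.4 CPM in the mutant, a log2 difference of 0.25 (edgeR adjusted p = 0.00423, SE 0.073). The groups did not overlap, but the call was lost without mutant replicate 2 (0.23, adjusted p = 0.0584), with DESeq2 (0.25, 0.129) and under somatic centring (0.05, 0.585). nas-20 (WBGene00003539) had 74.7 and 77.6 CPM in N2 and 69.4 and 71.1 CPM in the mutant, a log2 difference of -0.12 (edgeR adjusted p = 0.0459, SE 0.047). It lay just within the threshold and did not pass under 8 of 12 alternatives, among them leaving out N2 replicate 2 (-0.09, 0.232), mutant replicate 1 (-0.10, 0.301) or mutant replicate 2 (-0.14, 0.0925). Its neighbours nas-21 and nas-22 were not called, at log2 fold changes of -0.45 and -0.20 (edgeR adjusted p = 0.192 and 0.646). Under somatic centring nas-21 was called lower (-0.65, adjusted p = 0.0359), as nas-20 was (-0.32, 3.33e-07). The 3 genes summed to 77.1 and 80.7 CPM in N2 and 71.5 and 73.4 CPM in the mutant.

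nas-11 (WBGene00003530) had 65.1 and 66.7 CPM in N2 and 71.7 and 63.4 CPM in the mutant, with overlapping groups and no call at a log2 fold change of 0.04 (SE 0.050, 95% interval -0.06 to 0.14, edgeR adjusted p = 0.608). Under somatic centring nas-11 was called lower (-0.16, adjusted p = 0.00806). nas-37 encodes an astacin needed to shed the old cuticle at the moult. nas-37 (WBGene00003553) had 46.3 and 48.6 CPM in N2 and 50.1 and 52.3 CPM in the mutant. Both mutant libraries were above both N2 libraries, but the log2 fold change of 0.11 did not pass (SE 0.053, 95% interval 0.0031 to 0.21 before adjustment, edgeR adjusted p = 0.115), and it was -0.09 under somatic centring and was called with upper-quartile scaling (0.15, 0.0203).

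The other astacins with a known role had few counts. nas-36, which acts beside nas-37 in moulting, was counted 10 and 15 times in N2 and 15 and 10 times in the mutant. nas-38, linked to moulting and to the sleep-like state before it, was counted 46 and 36 times in N2 and 40 and 20 times in the mutant. nas-39, the worm member closest to BMP-1 and tolloid, was counted 12 and 17 times in N2 and 16 and 14 times in the mutant. Their log2 fold changes of 0.29, -0.16 and 0.34 had SEs of 0.455, 0.268 and 0.417 and did not pass (edgeR adjusted p = 0.681, 0.697 and 0.584). Their 95% intervals ran from -0.61 to 1.18, from -0.69 to 0.36 and from -0.48 to 1.16. At this depth the counts of these genes leave a rise, a fall or no change possible. nas-7, an astacin of the digestive tract, had 2.70 and 3.62 CPM in N2 and 3.60 and 3.18 CPM in the mutant (edgeR adjusted p = 0.637, log2 fold change 0.12 with SE 0.168). nas-6, of the pharynx, had 5, 2, 4 and 2 counts, N2 first, and was not tested.

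nas-3 had the largest fitted fold change among the tested genes of both families, from a low level. nas-3 (WBGene00003522) was counted 18 and 11 times in N2 and 39 and 38 times in the mutant, which is 0.546 and 0.394 CPM against 1.43 and 1.70 CPM. Its log2 fold change was 1.70 (SE 0.321, edgeR adjusted p = 1.3e-05), it was called under each of the 11 alternatives in which it was tested, and the groups were well apart. nas-30 (WBGene00003548) was counted 10 and 15 times in N2 and 25 and 17 times in the mutant (edgeR adjusted p = 0.0358, log2 fold change 1.03 with SE 0.396). The nas-30 call was lost without N2 replicate 1 (0.64, adjusted p = 0.336), mutant replicate 1 (0.88, 0.286) or mutant replicate 2 (1.14, 0.0816) and under somatic centring (0.83, 0.0796), and without N2 replicate 2 the value was 1.46 (0.0233). The 20 tested nas genes that were not called had log2 fold changes from -0.84 (nas-17) to 0.72 (nas-4).

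The other 13 nas rows had too few counts to test. The 2 nas-2 rows and nas-18 had no count in any library, which allows at most 3 counts. nas-1, nas-8, nas-10, nas-12, nas-13, nas-16, nas-23, nas-28 and nas-29, besides nas-6, had at most 9 counts in any library. nas-28 was counted 1 and 1 times in N2 and 7 and 4 times in the mutant, nas-10 had 3 counts in N2 replicate 1 alone, and nas-16 had 1 count, in mutant replicate 1. nas-16, nas-17, nas-18 and nas-19 are near neighbours in the RefSeq order, and together they held less than 1 CPM in every library.

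**Figure D4:**
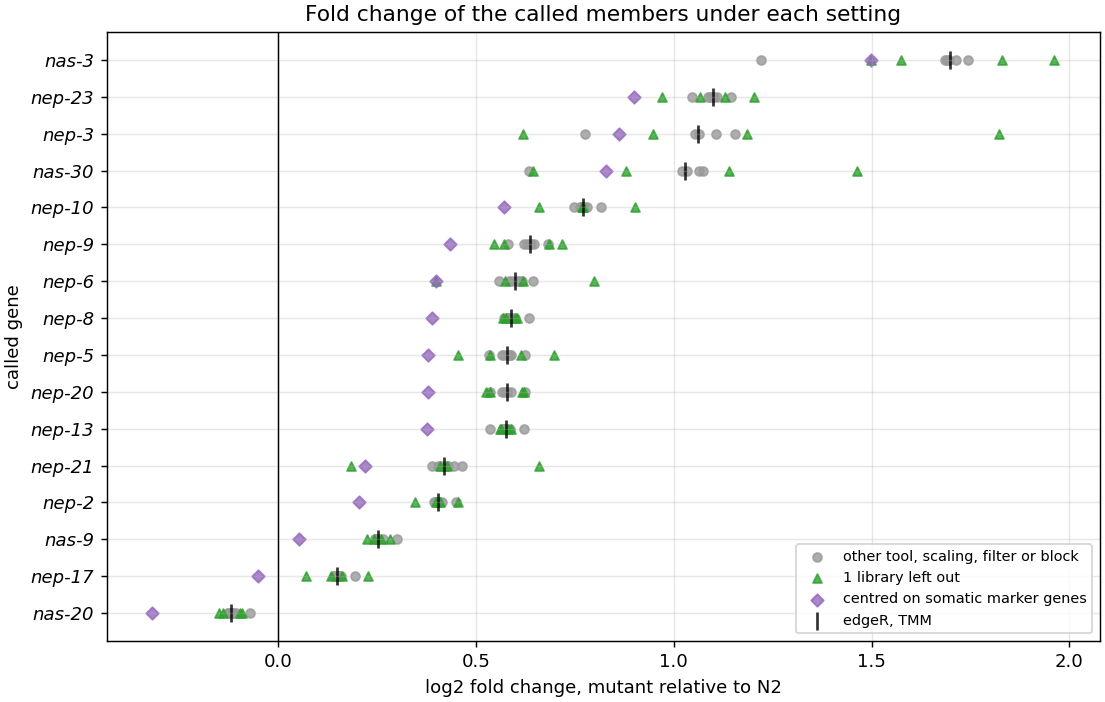
Log2 fold change of the 16 called genes under each setting: the black tick is edgeR with TMM scaling, green triangles leave out 1 library, purple diamonds use somatic centring and grey points are other tools, scalings, filters or the replicate block. nep-23, nas-3 and the 5 called neighbouring nep genes stay above 0 throughout, whereas nep-17 crosses to -0.05 under somatic centring.

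Related genes that carry other names were read beside the families. The astacin dpy-31, which trims the cuticle procollagen SQT-3, had 38.7 and 38.95 CPM in N2 and 40.6 and 41.95 CPM in the mutant (edgeR adjusted p = 0.255, log2 fold change 0.09 with SE 0.056). toh-1, a tolloid-like astacin, had 10.2 and 12.97 CPM in N2 and 10.4 and 10.1 CPM in the mutant (edgeR adjusted p = 0.186, log2 fold change -0.17 with SE 0.099), and the hatching enzyme gene hch-1 had 1 count in all. Neither tested gene of these passed, and the toh-1 groups overlapped, although toh-1 was called lower under somatic centring (-0.37, adjusted p = 0.00242), which also put dpy-31 at -0.12 (not called). Of the TIMP-type inhibitor genes, cri-2 rose by a log2 difference of 0.16 (edgeR adjusted p = 0.0244, SE 0.059) and timp-1 had 0.06 (adjusted p = 0.608), whereas under somatic centring neither was called, at -0.04 for cri-2 (0.665) and -0.14 for timp-1 (0.111). The 15 other metallopeptidase genes tested had 5 members that rose and 3 that fell, 7 were not called, and their median was 0.12 (-0.08 under somatic centring, with 3 higher and 7 lower). Those calls are 33.3% higher and 20% lower, beside 17.4% and 16.6% of all genes tested. Somatic centring called 1001 of the 13086 genes tested higher and 5216 lower. The ADAMTS gene gon-1 rose from 15.5 and 15.98 CPM to 25.7 and 26.2 CPM (log2 fold change 0.72), and the ADAM10-type gene sup-17 fell from 64.8 and 69.6 CPM to 47.1 and 49.03 CPM (log2 fold change -0.48).

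Genes of the processes these peptidases act in rose in some cases and fell in others. The 27 moulting and cuticle-processing genes had 11 that rose, 1 that fell and 15 not called, and a median of 0.19 (-0.0057 under somatic centring, with 7 higher and 5 lower). These calls are 40.7% higher and 3.7% lower, beside 17.4% and 16.6% of all genes tested. Under somatic centring, 1001 of the 13086 genes tested were called higher and 5216 lower. The procollagen gene sqt-3 rose from 17.7 and 19.6 CPM to 28.0 and 25.3 CPM, and lrp-1, a megalin-type receptor needed for moulting, from 162 and 158 CPM to 205 and 210 CPM. Among 88 tested precursor genes of neuropeptides, the kind of peptide neprilysins cut, 12 rose, 5 fell and 71 were not called (median 0.11, or -0.09 under somatic centring, with 5 higher and 15 lower). These counts are 13.6% higher and 5.68% lower, beside the 17.4% and 16.6% of all genes tested. The precursor gene nlp-12 rose by 0.80 and nlp-26 had a log2 fold change of -0.80.

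Tissue markers moved with genotype in the same libraries. Beside them, 17.4% of the 13086 genes tested were called higher and 16.6% lower, and under somatic centring 1001 genes higher and 5216 lower. The summed level of 15 muscle genes was 16687 and 17651 CPM in N2 and 28766 and 28661 CPM in the mutant, with 12 called higher and none lower. The largest part of that sum was unc-54, with 6868 and 7265 CPM in N2 and 13875 and 13781 CPM in the mutant. The median log2 fold change of the muscle list was 0.41. Of 26 tested sperm genes 23 were called higher and none lower, with sums of 1379 and 1436 CPM against 1936 and 2020.2 CPM, and the sperm gene msd-1 was at 0 in every library. Of 14 intestinal genes 10 were called higher and none lower, from 70585 and 63236 CPM to 77600 and 76489 CPM. Mean N2 levels of the vitellogenin genes vit-6 and vit-2 were 34654 and 18038 CPM, most of that intestinal sum. Of 17 oocyte genes 16 were called lower, from sums of 6695 and 6927 CPM to 4071 and 3993 CPM. The summed levels of 16 hypodermal genes overlapped (4792 and 5104 against 5041 and 5113 CPM), with 6 called higher and 0 lower. Most of that sum was col-19, not called, with 4695 and 5004 CPM in N2 and 4906 and 4993 CPM in the mutant. The median log2 fold change of the hypodermal list was 0.36. The pharyngeal list had 1 called higher and 4 lower of 11 tested (1072 and 954 against 1313 and 1442 CPM). Most of that sum was myo-1 (384 and 321 against 519 and 577 CPM) and myo-2 (376 and 309 against 493 and 546 CPM). Neither myo-1 nor myo-2 was called. The neuronal list had 5 called higher and 3 lower of 16 (279 and 298 against 264 and 265 CPM). Of 6 tested glial and coelomocyte genes 1 was called higher and 1 lower (49.1 and 52.7 against 49.05 and 46.5 CPM). Of 16 tested germline genes 1 was called higher and 7 lower (sums of 2220 and 2226 against 2076 and 2068 CPM). Somatic centring, which is built on the muscle, pharyngeal, intestinal, hypodermal and neuronal lists, gave 9 higher and 2 lower for muscle, 3 and 3 for intestine, 0 and 4 for pharynx, 5 and 1 for hypodermis and 0 and 5 for neurons. It gave 18 higher and 0 lower for sperm, 0 and 17 for oocyte, 0 and 15 for germline, and 1 and 3 for glia and coelomocytes. The part of these tissue differences in the changes of the nep and nas genes was not tested.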

How the data were processed

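The authors deposited whole-number footprint counts per gene for each library. Bowtie is named per the submitters' processing notes. For its version, the genome build, the annotation and the counting rule: not given in the sources used. The deposited log2 values equal, within 5e-04, the log2 of counts scaled to the smallest library plus a pseudocount of 8. Of 20182 features, 3 repeats under sequence names were left out. Symbols came from the WormBase name table. The count test was edgeR 4.0.16 under R 4.3.3 (filterByExpr with a minimum count of 10, TMM factors, robust glmQLFit, glmQLFTest, 2-sided, genotype only, adjusted over 13086 genes); SE is the log2 fold change divided by the square root of F, and 95% intervals span 1.96 SE on either side. The biological coefficient of variation was 4.83%. The script was tested on simulated data. Families received no test of their own. Alternatives used DESeq2 1.42.0, limma 3.58.1, other scalings, filters, a replicate block and left-out libraries.

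Members and lists were chosen with earlier results of these data known. Named genes were all called members, the 3 most abundant of each family and those of known role. Other members with values of their own, such as nep-11, nep-24, nas-21, nas-22 and nas-28, were added after their values were seen. Counts of the paired libraries within N2, and within the mutant, differed beyond sampling noise (chi-square over its degrees of freedom 24.6 and 8.38), so no library appears to be deposited again.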

Additional observations from a re-analysis of the deposited data

How the results depend on the processing

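Of the 16 calls among the members, all 16 remained without a low-count filter and with the replicate block. With upper-quartile scaling, and with limma on voom or on the authors' log2 values, 15 remained (nas-20 was lost). Somatic centring kept 12, DESeq2 kept 7 of the 14 it could adjust, and 12 of the 13 tested remained with at least 50 counts in 2 libraries. DESeq2 called 6 nep genes higher, 1 nas gene higher and 0 lower, and over all genes 1007 higher and 1171 lower. The number of nas genes called lower was also 0 with upper-quartile scaling, both limma fits and the 50-count filter, which left 1 nas gene called higher. Over all genes, upper-quartile scaling called 1598 lower, limma on voom 2098 and limma on the authors' log2 values 2106. The 50-count filter called 2171 higher and 2038 lower over all genes. Somatic centring gave 1 nep gene lower, 1 nas gene higher and 3 lower (nas-11, nas-20 and nas-21), 1001 higher and 5216 lower over all genes, and medians of 0.21 (nep) and -0.014 (nas). It also put nas-7 (-0.082), nas-11 (-0.16), nas-37 (-0.093), nep-1 (-0.19) and nep-17 (-0.051) below 0, as this scaling lowers every gene.

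Leaving out 1 library in turn gave median log2 fold changes of 0.37 to 0.52 (nep) and 0.043 to 0.21 (nas). In each of these fits the lone library was assumed to vary like the other group. Fold changes of genes that were never called in these fits changed sign: nas-7 (-0.092 to 0.33), nas-11 (-0.053 to 0.12), nas-36 (-0.098 to 0.72), nas-38 (-0.58 to 0.12), nas-39 (-0.014 to 0.72) and nep-1 (-0.058 to 0.077, and -0.00063 without the low-count filter). The cause was not tested.

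The labels give both groups replicate numbers 1 and 2 but no shared origin. Same-numbered libraries deviated together (correlation 0.235 over 8636 genes), a hint from the data and not from the design. With the replicate block the calls were 12 nep genes higher and 0 lower, and 3 nas genes higher and 1 lower. Over all genes the block gave 2431 higher and 2351 lower, beside 2278 and 2177 without it.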

Other observations

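Low counts in mutant replicate 2 alone were found for 3 scarce members. nas-17 was counted 23 and 10 times in N2 and 14 and 1 times in the mutant, its neighbour nas-19 6 and 13 times in N2 and 11 and 1 times in the mutant, and nep-25 20 and 18 times in N2 and 16 and 4 times in the mutant. None was called with all libraries, but without mutant replicate 1 nas-17 had a log2 fold change of -3.46 (edgeR adjusted p = 0.0126). These genes were singled out after their values were seen.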
